A study of Homo sapiens with 6 samples.

Results

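The genes described here are 5 metallothioneins (MT1E, MT1F, MT1G, MT1X and MT2A), the metal-responsive transcription factor MTF1 and the zinc exporter SLC30A1. They were chosen by gene name, and each matched 1 of the 58735 rows of the deposited expression table. The libraries came from MDA-MB-231, a triple-negative human breast adenocarcinoma line, and were made 24 h after irradiation. There were 3 libraries without irradiation (0 Gy, control 1 to 3) and 3 after 10 Gy from a 137Cs source (RT 1 to 3). The labels give the genotype of all 6 as WT and name each library SCR, and the study's methods call its control line for RNA sequencing shSCR, so both doses appear to carry the same control shRNA. Dose and time are those of the labels. The labels do not say whether replicates came from separate cultures, so p-values measure the spread between these libraries, which may be technical. Values are FPKM, which scale the fragments of a gene by its length and by a depth set for each library.

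Metallothioneins are small cysteine-rich proteins that hold zinc, copper and cadmium in clusters of thiolate groups, and they also scavenge oxidants. When free zinc rises, MTF1 binds metal response elements in the promoters of the metallothionein genes and of SLC30A1, and transcription of these genes increases. The SLC30A1 protein (ZnT1) then moves zinc out of the cell across the plasma membrane. Zinc transporters of the SLC30 family lower cytosolic zinc, and those of the SLC39 family raise it.

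The coding sequences of the metallothionein members are shown because the genes are near copies of each other, which bears on how reads were divided among them. They are read from GENCODE 29, 5′ to 3′ without the stop codon, with cysteine codons in capitals.
MT2A: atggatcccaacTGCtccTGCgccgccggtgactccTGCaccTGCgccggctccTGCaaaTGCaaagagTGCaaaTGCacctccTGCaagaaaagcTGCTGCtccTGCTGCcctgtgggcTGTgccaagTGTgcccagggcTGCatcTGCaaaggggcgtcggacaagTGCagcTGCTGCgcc
MT1E: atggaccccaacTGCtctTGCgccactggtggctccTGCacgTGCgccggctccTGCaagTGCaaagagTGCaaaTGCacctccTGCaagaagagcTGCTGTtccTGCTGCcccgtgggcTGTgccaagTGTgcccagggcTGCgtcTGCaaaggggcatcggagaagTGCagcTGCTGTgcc
MT1X: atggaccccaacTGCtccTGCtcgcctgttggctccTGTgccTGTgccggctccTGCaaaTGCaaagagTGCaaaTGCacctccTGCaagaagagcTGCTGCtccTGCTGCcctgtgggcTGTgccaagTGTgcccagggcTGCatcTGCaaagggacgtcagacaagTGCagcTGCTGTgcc
MT1F: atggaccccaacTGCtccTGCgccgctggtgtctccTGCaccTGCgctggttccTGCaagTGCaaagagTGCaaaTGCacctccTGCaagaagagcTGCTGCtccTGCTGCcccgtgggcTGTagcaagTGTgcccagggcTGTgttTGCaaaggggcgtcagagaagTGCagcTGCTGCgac
MT1G: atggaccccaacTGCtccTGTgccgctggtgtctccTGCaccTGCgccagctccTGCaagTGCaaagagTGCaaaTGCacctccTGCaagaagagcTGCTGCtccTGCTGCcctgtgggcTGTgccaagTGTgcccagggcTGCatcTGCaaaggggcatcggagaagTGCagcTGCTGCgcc
Each has 183 bases in 61 codons, and 20 of the codons (32.8%) encode cysteine. In MT2A, MT1E, MT1X, MT1F and the further family gene MT1A, those 20 cysteines lie at the same 20 codon positions. The closest pair of members was MT2A and MT1G, at 95.1% identity of bases, and the most distant was MT1X and MT1F, at 88.5%. MT2A was 92.3% identical to both MT1E and MT1X. The longest run of bases shared without a mismatch was 96, between MT1X and MT1G. Outside the coding region the transcripts diverge. No window of 150 bases, the read length named in the study's methods, from the main transcripts of MT2A, MT1E, MT1F or MT1G occurred in a transcript of another gene. For MT1X, 17 of 301 such windows (5.65%) did. With windows of 50 bases the shared share was 4.88% for MT2A, 5.34% for MT1E and 45.1% for MT1X. The genes that shared windows with MT1X include AC026461.1, a transcript that overlaps MT1X on the same strand. It was listed at 0 in every library, and its part of the shared windows was not counted. How the authors assigned reads that match several genes is not given in the sources used here, so single metallothionein values carry that uncertainty, and MT1X carries the most.

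All 6 libraries kept the markers of the line. VIM, CD44, AXL, CAV1, MSN, KRT18 and KRT8 were each above 70 FPKM in every library, and 5 of these 7 were called lower at 10 Gy. Of all genes tested 23.7% were called lower, and of the 889 averaging 50 FPKM or more over the 6 libraries 50.7% were. The count of these markers called lower was 3 in TPM (with 1 higher), with the replicate block, without a filter on low values, and with any single library other than control 1 left out. Of 8 luminal, leukocyte and endothelial markers, PGR and CD3E were listed at 0 in every library, and ESR1, FOXA1, PTPRC and LYZ stayed under 0.16 FPKM. GATA3 was between 2.70 and 3.24 FPKM, and PECAM1 was between 1.22 and 1.23 FPKM at 0 Gy and between 1.88 and 1.97 FPKM at 10 Gy, a called rise. The part of these markers in the results below was not tested. The deposited values gave whole reads in 100% of entries above 0, within 0.01 read, and between 15643641 and 28861781 reads per library. The depth that divided the deposited values was 0.973, 0.983 and 0.991 times these reads in control 1 to 3. It was 1.036, 1.039 and 1.028 times these reads in RT 1 to 3. Deposited FPKM therefore stand lower at 10 Gy, relative to 0 Gy, than shares of recovered reads do. The part of this scaling in the calls below was not tested.

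MT2A was by far the most abundant member. It is the main metallothionein of most human tissues and lies on chromosome 16 of GRCh38 from 56608199 to 56609497. Without irradiation it was at 1014, 901 and 804 FPKM, from 28079, 17997 and 22622 reads. After 10 Gy it was at 643, 674 and 713 FPKM, from 24991, 15971 and 20042 reads. Every irradiated library was below every control library. The mean fell from 906 ± 105 to 677 ± 34.7 FPKM (SD, n = 3). The level fell by 25.4%. MT2A ranked 21 by level at 0 Gy among the 12128 genes tested, those whose mean over the 6 libraries reached 1 FPKM. On the log2(FPKM + 1) scale its change was -0.42 (standard error 0.09, adjusted p = 0.011 from limma). The call does not hold when every gene above 0 in any library is tested (adjusted p = 0.076).

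MT1E, an MT1 isoform of the same cluster, fell the most of the 7. It lies on chromosome 16 from 56625475 to 56627112. Its control values were 98.4, 87.8 and 84.7 FPKM, and its values after 10 Gy were 56.5, 57.3 and 60.1 FPKM. The highest irradiated library was well below the lowest control library. The mean fell from 90.3 ± 7.19 to 58.0 ± 1.92 FPKM (SD, n = 3). The level fell by 35.8%. The log2 change was -0.63 (standard error 0.06, adjusted p = 7.0e-04 from limma). A change at or below that of MT1E was found in 52 of the 12128 genes tested (0.429%), and one at or below that of MT2A in 281 (2.32%).

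MT1X, an MT1 isoform and the last gene of the cluster, also fell, from a far lower level. It lies on chromosome 16 from 56682424 to 56684196. It was at 3.91, 4.11 and 3.67 FPKM without irradiation and at 2.70, 3.03 and 2.71 FPKM after 10 Gy, and the groups did not overlap. Its reads numbered 148, 112 and 141 in the control libraries and 143, 98 and 104 in the irradiated ones. The mean fell from 3.90 ± 0.220 to 2.81 ± 0.188 FPKM (SD, n = 3). The level fell by 27.9%. The log2 change was -0.36 (standard error 0.06, adjusted p = 0.0042 from limma). MT1X overlaps the transcript AC026461.1 on the same strand, which was listed at 0 in every library.

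**Figure D1:**
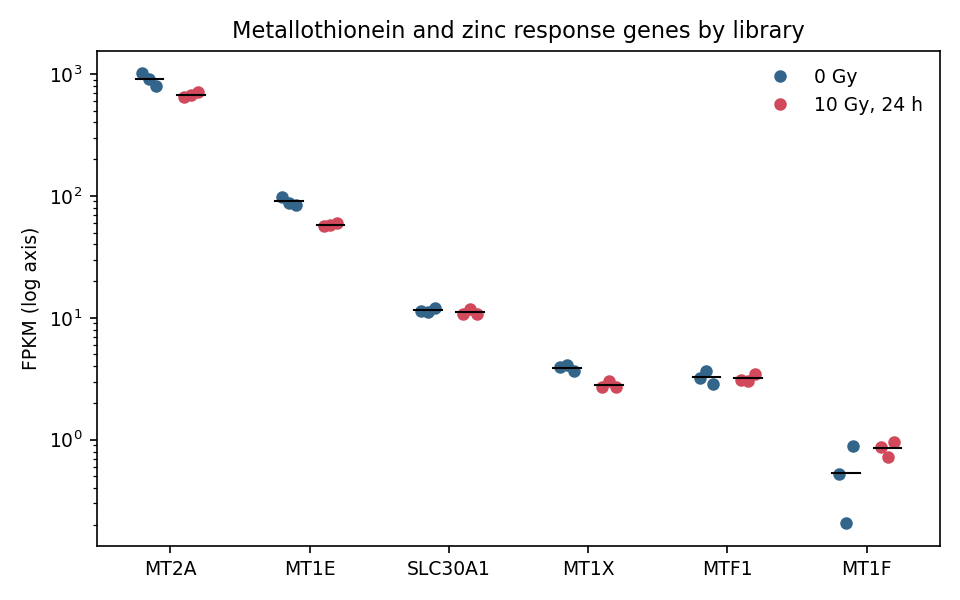
FPKM (log axis) of 6 members in each of 3 libraries at 0 Gy (blue) and 3 at 10 Gy (red), with group means as black lines. The irradiated libraries lay below the control libraries for MT2A, MT1E and MT1X, and the groups overlapped for SLC30A1, MTF1 and MT1F. MT1G was listed at 0 in every library and is not drawn.

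MT1F and MT1G are the remaining MT1 isoforms among the members. MT1F was at a low level, and MT1G was not detected. MT1F lies on chromosome 16 from 56657694 to 56660698. It was at 0.521, 0.207 and 0.880 FPKM in the control libraries, from 21, 6 and 36 reads. In the irradiated libraries it was at 0.867, 0.725 and 0.954 FPKM, from 49, 25 and 39 reads. These values overlap, and the control libraries spread 4.26-fold. MT1F did not reach the minimum mean of 1 FPKM over the deposited length, although over its main transcript it would be at 1.47 FPKM at 0 Gy and 2.32 FPKM at 10 Gy. In a fit of all 31650 genes above 0 in any library its log2 change was 0.29 (standard error 0.17, adjusted p = 0.40 from limma). MT1G lies on chromosome 16 from 56666731 to 56668065, on the opposite strand to the other metallothioneins of the cluster. It had 0 reads in all 6 libraries, which allows a level of up to 0.260 FPKM in the shallowest of them, counting error only. No change of MT1G was therefore detectable at this depth.

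MTF1, the zinc finger protein that senses zinc and drives metallothionein transcription, lies on chromosome 1 from 37809567 to 37859620. It was at 3.20, 3.66 and 2.87 FPKM without irradiation and at 3.11, 3.06 and 3.45 FPKM after 10 Gy. The irradiated values all lay within the range of the control values. The means were 3.24 ± 0.394 and 3.21 ± 0.215 FPKM (SD, n = 3). The log2 difference was -0.01, with a 95% interval from -0.19 to 0.17 (adjusted p = 0.94 from limma).

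SLC30A1 lies on chromosome 1 from 211571568 to 211578742. Its control values were 11.5, 11.2 and 12.1 FPKM, and its values after 10 Gy were 10.7, 11.8 and 10.8 FPKM, so the groups overlapped. The means were 11.6 ± 0.461 and 11.1 ± 0.633 FPKM (SD, n = 3). The log2 difference was -0.05, with a 95% interval from -0.17 to 0.06 (adjusted p = 0.41 from limma). A fall of the size seen in MT2A, MT1E or MT1X lies outside the intervals of both MTF1 and SLC30A1.

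Of the 7 members, 5 reached the minimum of 1 FPKM and 3 of these were called lower. Across all 12128 genes tested, 2874 (23.7%) were called lower and 1443 (11.9%) higher at an adjusted p under 0.05, and 32.8% of genes had irradiated libraries that all lay below the controls (19.1% above). A call with a change of at least 1.3-fold, on the log2(FPKM + 1) scale, was found for 2 of the 5, MT1E and MT2A, both lower, against 2.95% of all genes lower and 2.82% higher. MT1X missed that size by the pseudocount of 1 and passed it with one of 0.1 (log2 change -0.46). MT2A missed it in TPM (-0.29) and without control replicate 1 (-0.33). With the FPKM rescaled to TPM, the split of calls turned to 3232 higher and 972 lower. That rescaling moved the median log2 change of all genes by 0.14, from -0.04 to 0.11. Relative to the median of all genes, the log2 change of MT1E was -0.59 as deposited and -0.61 in TPM. That of MT2A was -0.38 and -0.39, and that of MT1X was -0.32 and -0.42. Relative to the same medians MTF1 was at 0.03 and 0.0020, and SLC30A1 at -0.02 and -0.04. For a single gene, 3 libraries against 3 cannot give a p below 0.1 in the two-sided exact permutation test, which was the p of MT2A, MT1E and MT1X.

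Abundant genes are set beside MT2A and MT1E because their changes lay below those of most genes. Among the 48 genes averaging 500 FPKM or more over the 6 libraries, the median log2 change was -0.19 against -0.04 for all genes tested, and 22 were called lower (45.8%) and 0 higher. In TPM their median was -0.06 against 0.11 for all genes, and 13 were called lower (27.1%) and 0 higher. Among the 361 genes averaging 100 FPKM or more, 202 were called lower (56.0%) and 16 higher, and in TPM 86 lower and 46 higher. The change of MT2A or a larger fall was found in 6 of the 48, MT2A included, under both scalings. At an average of 50 FPKM or more, 10 of 889 genes had the change of MT1E or a larger fall, MT1E included, under both scalings. These level classes were chosen after the data were seen.

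**Figure D2:**
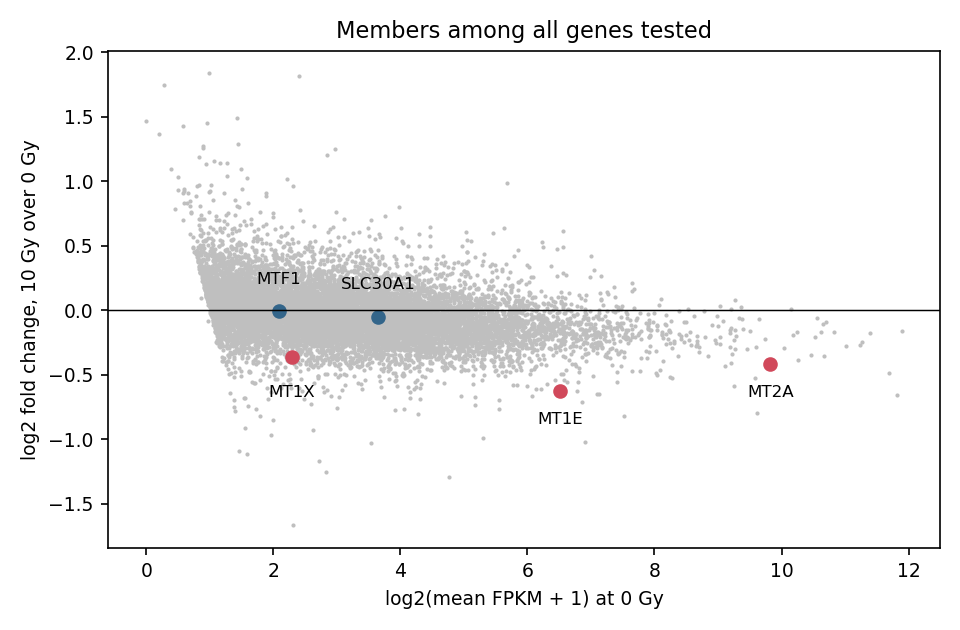
Log2 fold change of 10 Gy over 0 Gy against log2(mean FPKM + 1) at 0 Gy for the 12128 genes tested (grey), with called members in red and uncalled members in blue. MT2A and MT1E lay below most genes of their level, while MTF1 and SLC30A1 lay near the line of no change.

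The 5 metallothionein members together were at 1116, 993 and 893 FPKM in the control libraries and at 703, 735 and 776 FPKM in the irradiated ones. Their sum was 0.737 times the control level after 10 Gy, or 738 ± 36.6 against 1001 ± 112 FPKM (SD, n = 3). In reads they made up between 0.113% and 0.139% of the control libraries and between 0.0934% and 0.102% of the irradiated libraries. MT2A supplied 90.5 ± 0.433% of the summed FPKM at 0 Gy and 91.6 ± 0.163% at 10 Gy (SD, n = 3). MT1E supplied between 8.81% and 9.48% at 0 Gy and between 7.75% and 8.03% at 10 Gy, with MT1X and MT1F making up the rest. In bulk RNA, fewer cells of a kind and less RNA per cell cannot be told apart.

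The order of the levels per kilobase at 0 Gy was MT2A, MT1E, SLC30A1, MT1X, MTF1, MT1F and MT1G. MT1X and MTF1 were close neighbours. At 0 Gy the lowest MT1X library (3.67 FPKM) was just above the highest MTF1 library (3.66 FPKM), and at 10 Gy all MT1X libraries were below all MTF1 libraries. The libraries of no neighbouring pair overlapped at either dose. The order depends on the length used, since the deposited lengths of MT1X (1773 bases) and MT2A (1299 bases) equal the whole gene with its introns. Over the length of the main GENCODE 29 transcript (450 bases for MT1X), MT1X would be at 15.4 FPKM at 0 Gy and above SLC30A1 (11.6 FPKM), and MT2A at 1498 FPKM. Lengths do not alter the changes between doses, apart from the weight of the pseudocount.

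The wider family had 12 listed metallothionein genes, of which 4 reached 1 FPKM and 3 were called lower, those described above. Their median log2 change was -0.39, against -0.04 for all genes tested. The fourth was MT1A, which lies between MT1E and MT1X and encodes another MT1 isoform. It was at 21.8, 15.8 and 18.1 FPKM without irradiation and at 17.6, 18.8 and 18.2 FPKM after 10 Gy, from 184, 96, 155, 208, 136 and 156 reads. The irradiated values lay within the control range, and the log2 difference was -0.02 with a 95% interval from -0.25 to 0.22 (adjusted p = 0.92 from limma). MT1B, MT1H, MT1M, MT4 and MT1HL1 were listed at 0 in every library, as was MT1G, and MT3 had at most 6 reads in a library. None of the 9 listed pseudogenes reached a mean of 1 FPKM over the 6 libraries. Among them MT1JP had 1, 0 and 0 reads at 0 Gy and 4, 5 and 7 at 10 Gy, and MT1XP1 had 4, 3 and 8 reads at 0 Gy and 5, 1 and 1 at 10 Gy (means of 1.35 and 0.481 FPKM).

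Ratios within a library do not depend on how libraries were scaled. The log2 ratio of MT2A to MT1A was 5.54, 5.84 and 5.48 in the control libraries and 5.19, 5.16 and 5.29 in the irradiated ones, so the groups did not overlap and the means differed by -0.40. The ratio of MT1E to MT1A differed by -0.62 on the log2 scale, and that of MT1X to MT1A by -0.46, again without overlap. The log2 ratio of MT2A to MT1E was higher by 0.22 after 10 Gy, with values of 3.25 to 3.37 at 0 Gy and 3.51 to 3.57 at 10 Gy. The ratios of MT2A to MT1X and of MT1E to MT1X overlapped between the doses. In two-sided exact permutation tests of the 6 ratios, the 4 without overlap reached the lowest p that the design allows, 0.1, or 0.15 after Benjamini-Hochberg adjustment over the 6.

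The metallothionein genes of chromosome 16 lie in a cluster of 119 kb from 56565049 to 56684196, which holds 16 of the listed genes and pseudogenes. Between MT2A and MT1E lie the pseudogene MT1L, which had no read at 0 Gy, and the lincRNA AC026461.3. MT1M, next to MT1E, was at 0. Some flanking genes within 200 kb on both sides were also compared. NUDT21, a subunit of the cleavage factor for messenger RNA 3′ ends, and OGFOD1, an oxygenase, were called lower, with log2 changes of -0.16 (adjusted p = 0.014 from limma) and -0.18 (adjusted p = 0.011). BBS2 and NUP93 were not called, with log2 differences of -0.13 and -0.09. The flank was chosen after the data were seen.

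**Figure D3:**
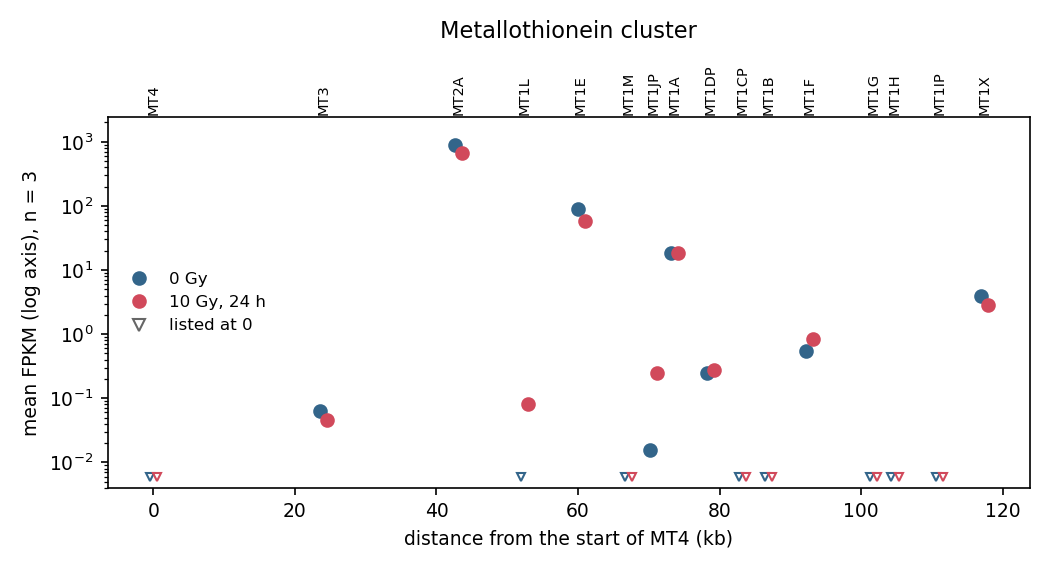
Mean FPKM (log axis, n = 3) of each metallothionein gene and pseudogene of the chromosome 16 cluster at 0 Gy (blue) and 10 Gy (red), by distance from the start of MT4 in kb. Triangles mark genes listed at 0 in all libraries of a dose. MT2A, MT1E and MT1X were lower at 10 Gy and MT1A was at 18.5 FPKM at 0 Gy and 18.2 FPKM at 10 Gy.

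Promoter sequences of MT2A, MT1X and SLC30A1 are shown because MTF1 acts through motifs in the promoters of these genes. The letters searched were TGCACNC and TGCGCNC, the core of the metal response element, on both strands, in the 250 bases before the RefSeq start on GRCh38.p14. Matches are in capitals, and none overlapped another.
MT2A, chr16:56608334-56608583, + strand: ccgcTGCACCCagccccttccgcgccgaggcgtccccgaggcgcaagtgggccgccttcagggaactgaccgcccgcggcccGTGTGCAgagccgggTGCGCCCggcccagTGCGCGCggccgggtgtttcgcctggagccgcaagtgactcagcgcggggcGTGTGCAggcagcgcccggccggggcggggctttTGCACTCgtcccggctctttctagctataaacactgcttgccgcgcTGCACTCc
MT1X, chr16:56682220-56682469, + strand: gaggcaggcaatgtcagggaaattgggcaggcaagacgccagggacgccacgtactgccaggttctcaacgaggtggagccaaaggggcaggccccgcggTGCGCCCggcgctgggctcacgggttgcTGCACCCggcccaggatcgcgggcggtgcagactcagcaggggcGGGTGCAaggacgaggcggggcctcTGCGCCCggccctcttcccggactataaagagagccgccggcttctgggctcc
SLC30A1, chr1:211579162-211579411, - strand: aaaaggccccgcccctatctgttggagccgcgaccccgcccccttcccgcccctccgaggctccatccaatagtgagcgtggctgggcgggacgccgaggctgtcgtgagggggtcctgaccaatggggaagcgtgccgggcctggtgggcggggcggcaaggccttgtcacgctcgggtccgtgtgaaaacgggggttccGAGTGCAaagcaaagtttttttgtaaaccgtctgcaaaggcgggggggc
MT2A had 7 matches, 5 of them TGCACNC and 2 TGCGCNC, and 2 of the 7 lay on the opposite strand. MT1X had 4 matches between 150 and 47 bases before its start. SLC30A1 had 1, on the opposite strand from 49 to 43 bases before its start, and MTF1 had 0. Of all 35116 RefSeq promoters of this length, 24.8% held at least 1 match, 1.58% held 3 or more and 0.0513% held 6 or more. A match is a description of letters and not a measured binding site. Whether the number of matches bears on the changes between doses was not tested. Promoters were matched for 4 of the 7 members, not for MT1E, MT1F or MT1G. The RefSeq starts of MT2A, MT1X and MTF1 lie inside the genes as deposited, and that of SLC30A1 lies outside its gene, so the windows are not placed alike.

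**Figure D4:**
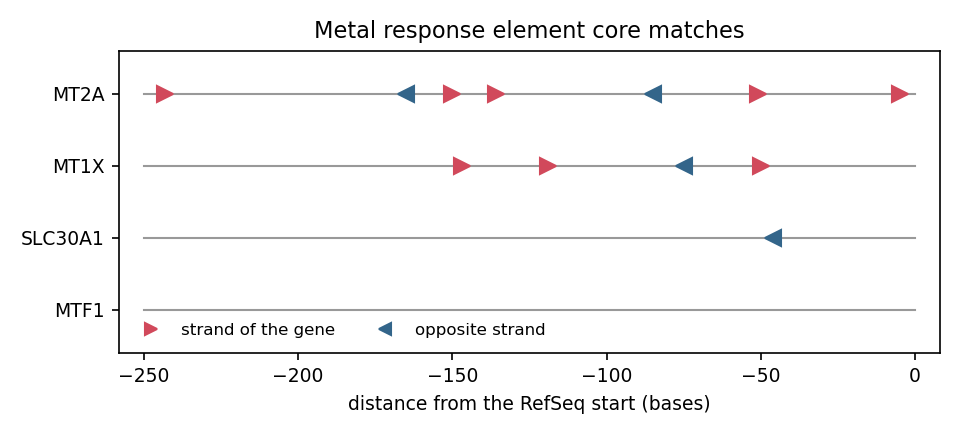
Matches of the metal response element core in the 250 bases before the RefSeq start of MT2A, MT1X, SLC30A1 and MTF1, by distance from the start. Red marks the strand of the gene and blue the opposite strand. The numbers of matches are 7, 4, 1 and 0.

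Zinc exporters of the SLC30 family showed no call. Of 10 listed genes 6 reached 1 FPKM, and 0 were called by limma, with 0 at an unadjusted p under 0.05 and a median log2 difference of 0.04. After SLC30A1, the most abundant were SLC30A9 (11.5 FPKM at 0 Gy and 11.8 at 10 Gy) and SLC30A5, which loads zinc into the secretory pathway (11.4 and 11.8 FPKM). In TPM, SLC30A9 alone was called, higher, with a log2 change of 0.16 (adjusted p = 0.014 from limma).

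Among zinc importers of the SLC39 family the share of calls was near that of all genes. Of 14 listed genes 10 reached 1 FPKM, 3 were called lower (23.7% of all genes tested were) and 0 higher, with a median log2 difference of -0.05 against -0.04 for all genes. SLC39A10, an importer of the plasma membrane, was at 7.25, 7.68 and 7.52 FPKM at 0 Gy and at 6.24, 6.28 and 6.19 FPKM at 10 Gy. Its groups did not overlap, and its log2 change was -0.23 (standard error 0.04, adjusted p = 0.0041 from limma). SLC39A13, which acts in the early secretory pathway, had a log2 change of -0.20 (adjusted p = 0.0088), and SLC39A8, which also carries manganese, of -0.18 (adjusted p = 0.027). The most abundant importer was SLC39A7 of the endoplasmic reticulum, at 81.7 ± 5.32 and 74.1 ± 1.14 FPKM (SD, n = 3, adjusted p = 0.067 from limma). SLC39A14 was at 28.7 and 29.2 FPKM. With 1 library left out, 2 to 4 importers were called lower. These calls depend on the scaling, though 3 importers were also called lower with upper quartile or median-of-ratios scaling. In TPM none of the 3 was called, with log2 differences of -0.13 for SLC39A10, -0.07 for SLC39A13 and -0.06 for SLC39A8, while SLC39A9 (0.25) and SLC39A14 (0.15) were called higher.

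**Figure D5:**
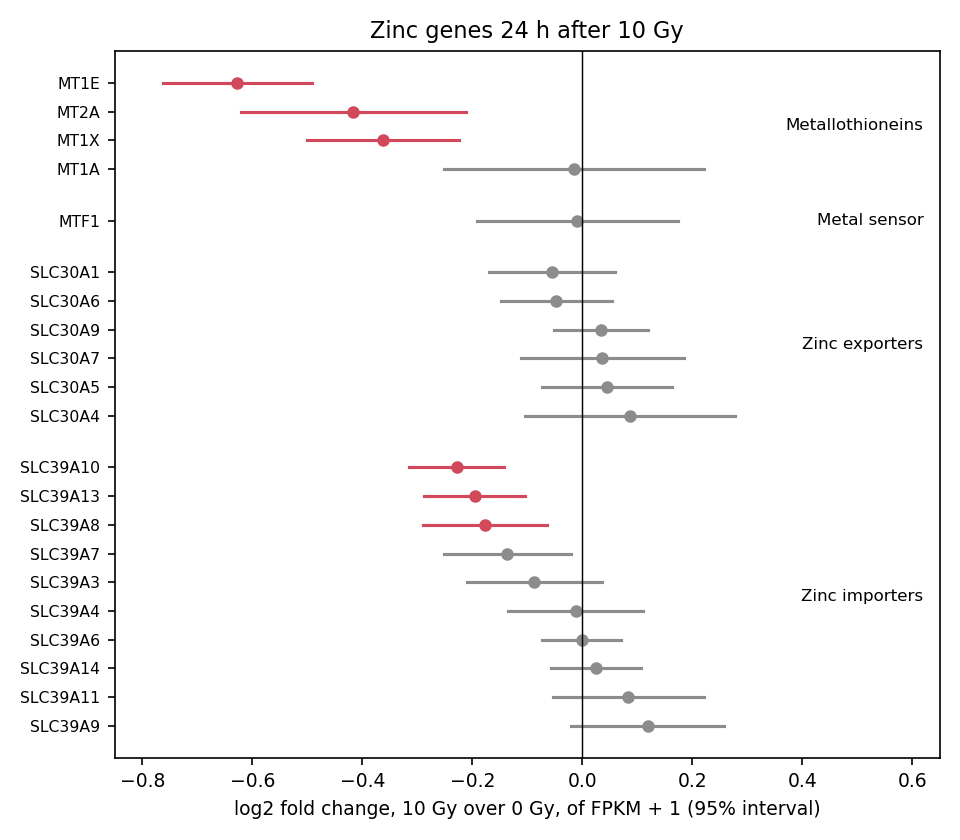
Log2 fold change of 10 Gy over 0 Gy, of FPKM + 1, with 95% intervals from limma for the metallothioneins, MTF1, zinc exporters and zinc importers that reached 1 FPKM. Red marks an adjusted p under 0.05. MT1E, MT2A and MT1X lay farthest below 0, and the calls of SLC39A10, SLC39A13 and SLC39A8 were lost in TPM.

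A list drawn up for MTF1 partners and zinc sensing was called about as often as all genes. It also holds MTF2, BACH1 and NFE2L2, whose link to MTF1 was not tested. Of its 8 genes, MTF1 included, 7 were tested, and 2 were called lower and 1 higher. That was 3 of 7, or 42.9%, against 35.6% of all genes tested. The median log2 difference of the list was -0.02. SP1, a zinc finger activator that shares promoters with MTF1, was at 17.4, 20.0 and 19.0 FPKM at 0 Gy and at 14.9 FPKM in each irradiated library (log2 change -0.31, adjusted p = 0.0037 from limma). NFE2L2, which encodes NRF2, changed by -0.21 (adjusted p = 0.0037), and EP300, an acetyltransferase coactivator, by 0.31 (adjusted p = 0.023). The call of EP300 was lost without a filter on low values and without RT replicate 1 or RT replicate 2. In TPM 2 genes of this list were called higher and 0 lower.

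Other inputs of the metallothionein genes were described by the same counts. Glucocorticoids also raise metallothionein transcription, and of 10 listed glucocorticoid-induced genes 9 were tested, with 3 called lower and 1 higher, or 44.4% called against 35.6% of all genes, and a median log2 difference of -0.05. The lower genes were SGK1 (log2 change -0.34), ERRFI1 (-0.18) and FKBP5 (-0.13), and the higher gene was the clock gene PER1 (0.39). The count called lower in this list was 2 without a filter on low values and with the replicate block. It was also 2 with any single library other than control 1 left out. NR3C1, the receptor itself, was at 15.4 FPKM at 0 Gy and 15.2 FPKM at 10 Gy and was not called. Of 14 listed copper genes 11 were tested and 2 were called lower (18.2%, against 23.7% of all genes), with a median log2 difference of -0.05. They were COX11, a copper chaperone of cytochrome oxidase (log2 change -0.11), and MT-CO2, a mitochondrially encoded subunit that holds copper (-0.48). Both copper calls were lost without a filter on low values, without control replicate 2 or 3 and without RT replicate 1 or 2. In TPM they were lost too, with 2 others called higher, and the glucocorticoid list had 1 lower and 2 higher.

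Likeness to the members was measured as the root mean square difference of log2(FPKM + 1) over the 6 libraries, after centring each gene on its 0 Gy mean. Nearest to the mean profile of the 5 metallothioneins were ASPSCR1 (0.016), SH3GL1 (0.016) and BAG1 (0.017). That mean holds MT1G, which was constant at 0, and MT1F, so its fall is smaller than that of MT2A or MT1E. Nearest to MTF1 were BCL2L13 (0.027), DPYSL2 (0.028) and TMEM231 (0.030), and nearest to SLC30A1 were NUP37 (0.015), ZDHHC14 (0.017) and NEURL4 (0.021).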

How the data were processed

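The authors deposited FPKM values from polyA libraries that their sequencing provider made and read in pairs. The submitters' processing notes name HISAT2 and GRCh38, and the counting program is not given in the sources used here. All 58735 gene identifiers and coordinates matched GENCODE 29. Gene lengths are those deposited, except where the main transcript is named. Recovered reads were used for depth, for read numbers of single genes and for shares of a library. They did not enter the comparison of doses. The samples fall into 2 groups of 3 by the labels, and the paper does not describe the irradiation.

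Doses were compared by limma 3.58.1 (R 4.3.3) using eBayes with a trend on the mean. Values entered as log2(FPKM + 1), for 12128 genes averaging 1 FPKM or more, and p was adjusted over all of them by Benjamini-Hochberg. This scale understates the change of low genes. The fit was tested on simulated data. Exact permutation tests used scipy 1.17.1, and figures matplotlib 3.10.9. Genes named are the members, the other metallothioneins, list genes that passed the test, the most abundant transporters and the 3 most alike genes. Flanking genes, level classes and main transcript lengths were added after the data were seen. Not every flanking gene is reported here. Members and lists were chosen with earlier results of these data known. Replicate numbers were not treated as pairs in the main fit. Alternatives covered the pseudocount, filter, scaling, eBayes settings, replicate block, protein-coding genes and each library left out.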

Additional observations from a re-analysis of the deposited data

How the results depend on the processing

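MT1E and MT1X were called lower under every alternative in which they were tested, with log2 changes from -0.67 to -0.51 and from -0.47 to -0.32. MT2A was called lower under 16 of 17 alternatives (-0.50 to -0.29) and was not called without a filter on low values (-0.42, adjusted p = 0.076, over 31650 genes). MTF1 and SLC30A1 were called under none. In TPM their differences turned to 0.11 and 0.067, and with single libraries left out that of MTF1 ranged from -0.074 to 0.060 and was above 0 without control replicate 2, RT replicate 1 or RT replicate 2. A minimum of 5 FPKM left MT1X and MTF1 untested. Counts over all genes moved more. Without a filter 1815 genes were called lower, and with a minimum of 5 FPKM 874 were called higher. In TPM 3232 were higher and 972 lower, and the SLC30 list had 1 gene higher and the SLC39 list 2 higher and 0 lower. Leaving out 1 library gave 2651 to 3975 calls, 846 to 1388 higher and 1805 to 2621 lower, with the fewest without RT replicate 2 (2651) and RT replicate 1 (2711). The summed metallothionein ratio stayed between -0.52 and -0.31 on the log2 scale. For the lists of members, MTF1 partners, glucocorticoid-induced, copper and marker genes, 34 of 202 counts under the alternatives moved. A move was a change by more than 1.5 times, or to or from 0. Deviations of same-numbered libraries correlated at -0.04, -0.03 and -0.10, and those of other pairs between -0.05 and 0.09. With 3 libraries a dose this cannot show whether same-numbered libraries shared a culture or batch. With the replicate block 3503 genes were called in place of 4317, and the same members were called, with an adjusted p of 0.033 for MT2A. The causes of these moves were not tested. Depth limits MT1G and the pseudogenes. MT1F is limited by low values that spread 4.26-fold between the control libraries, and precision rests on 3 libraries a dose.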
